A study of Mus musculus with 8 samples.

Results

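The Paneth zone described here was the set of spots richest in alpha-defensin RNA in 2 Visium sections of mouse small intestine. Visium captures RNA on a slide in fixed spots, and a spot takes up RNA from several neighbouring cells. Spots with at least 500 unique molecular identifiers (UMIs, each standing for 1 captured RNA molecule) were kept. In each section the top 10% of kept spots were taken, ranked by the UMIs of the genes whose names start with Defa over all UMIs of the spot. This gave 209 of 2094 spots in section 1 and 257 of 2571 spots in section 2, or 466 of 4665 in all. The series held 8 libraries on the exchange between lymphatic vessels and intestinal stem cells, of which 2 were these sections, 2 were Visium sections of large intestine, 2 were sorted-tissue libraries and 2 were organoid libraries. The sections were from C57BL/6 mice and were cut as cryosections of 10 µm under the immunofluorescence version of the assay, with no treatment, age or number of animals given. The sorted small intestinal library, used near the end, came from C57BL/6 and Lgr5-eGFP-ires-CreERT2 mice, the latter with a knock-in at Lgr5. The labels call the sections of a tissue technical duplicates, and spots of a section are not replicates, so no test was made and every value below is a description of these sections. Where values come in pairs, section 1 is given first and section 2 second.

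Paneth cells are secretory cells that sit at the base of the small intestinal crypts, between the stem cells. They store antimicrobial proteins in granules, foremost alpha-defensins (called cryptdins in mice) and lysozyme, and release them into the crypt. They also make signals such as Wnt3 and the Notch ligand Dll4 for the neighbouring stem cells. Crypts of the healthy large intestine lack them.

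The Defa genes that chose the spots lie side by side on mouse chromosome 8, from Defa21 at 21025545-21026517 to Defa24 at 21734494-21735471 in GRCm38.p6, the RefSeq build that matches mm10. Several are near-identical copies. Their start regions are printed because some of them are near-identical, and because those with a window share a motif. These bases lie before the start and are not part of the counted RNA. The 150 bases just before the RefSeq start are given 5′ to 3′ on the gene's strand, and capitals mark matches to ATCAAAG, the core of the site read by TCF/LEF factors, the DNA-binding partners in Wnt signalling.

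Defa21, chr8:21025395-21025544, plus strand: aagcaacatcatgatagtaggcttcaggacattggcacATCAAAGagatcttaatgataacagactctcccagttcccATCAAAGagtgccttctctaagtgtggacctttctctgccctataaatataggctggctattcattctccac
Defa20, chr8:21509108-21509257, plus strand: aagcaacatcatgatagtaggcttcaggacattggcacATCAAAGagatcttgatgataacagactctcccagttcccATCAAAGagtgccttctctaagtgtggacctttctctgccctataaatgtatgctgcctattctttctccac
Defa35, chr8:21064888-21065037, plus strand: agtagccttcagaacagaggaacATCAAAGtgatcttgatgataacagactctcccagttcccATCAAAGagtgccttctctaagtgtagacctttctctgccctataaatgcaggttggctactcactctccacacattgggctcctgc
Defa30, chr8:21134500-21134649, plus strand: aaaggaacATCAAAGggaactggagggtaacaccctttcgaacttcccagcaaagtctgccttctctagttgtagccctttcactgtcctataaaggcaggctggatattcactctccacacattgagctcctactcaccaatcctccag

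The window of Defa22, at chr8:21162127-21162276, was the same as that of Defa21 in all 150 bases, and the Defa20 window shared 145 of 150. Compared position by position without gaps, the Defa35 and Defa30 windows shared 40 and 42 of 150, a count that any offset between windows lowers. Reads from near-identical copies may not be assigned to 1 gene with certainty, so the values of single Defa genes are uncertain. ATCAAAG and its reverse complement CTTTGAT, on either strand, were searched in the RefSeq promoter table. It held windows for 12 of the 22 Defa genes used in the ranking, whose UMIs made up 42.5% and 37.6% of the zone Defa UMIs, and not for Defa24 or Defa17. At least 1 match was found in 12 of these 12. Of 4 further Defa genes that took no part in the ranking, 1 had a match. Over all 16, 8 had 2 matches, with the first base of the Defa21 matches at -112 and -72 from the start. Of 32851 windows of the same length over all genes, 591 (1.80%) held a match. No match lay in the windows of Lyz1, Mptx2, Itln1, Mmp7, Ang4, Habp2, Reg4 or Wnt3. A match says only that these letters are there.

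The spots were chosen by their measured Defa share, so these ranking values are given as a description only. In section 1 the Defa share of zone spots ran from 15.004% to 50.8% of all UMIs with a median of 23.6%, against a median of 1.5002% in the remaining spots. In section 2 it ran from 10.1% to 37.3% with a median of 16.1%, against 0.912%. The cut fell within a continuous range, with the last spot inside at 15.004% and the first outside at 14.930% in section 1, and at 10.06% and 10.02% in section 2. Zone spots held 56.5% and 59.6% of all Defa UMIs of the kept spots but 7.15% and 6.54% of the other UMIs. Every kept spot of both sections had at least 1 Defa UMI, while the large intestine sections had 19 and 16 Defa UMIs in all. Visium slides share 1 set of barcodes, and the sections had 1223 in common among kept spots, while of 95 section 1 zone barcodes kept in section 2, 3 were in the zone there too.

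Zone spots were shallower than the rest. Their median was 8922 and 7059 UMIs, against 10267 and 9399 in the remaining spots, and they had a median of 2762 and 2694 genes, against 3289 and 3212.5. Mitochondrial UMIs made up a median of 4.48% and 4.35% of UMIs other than Defa, against 6.31% and 5.68%. Because Defa RNA fills so much of a zone spot, levels are given in CPM, here UMIs per 1000000 UMIs of all genes except the Defa genes, summed over the spots of a group. Log2 ratios set the zone over the remaining spots of the same section, and their intervals are exact 95% intervals that cover counting error only. In summed spots, fewer cells of a type and less RNA per cell cannot be told apart.

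A gene is called higher or lower where its ratio was at least 2-fold in the same direction in both sections, among 10749 genes with at least 100 UMIs in each section. By this rule 1186 genes (11%) were higher in the zone and 782 (7.28%) were lower. Of the genes tested, 287 reached the minimum only with their zone UMIs, and 116 of these were higher. A further 303 genes were at least 2-fold higher in section 1 alone and 878 in section 2 alone. The median log2 ratio over all these genes was 0.22 and 0.32, so a list is read against that shift. Higher calls made up 60.3% of calls, but 26.1% with scaling by all UMIs, 35.2% with ratios centred on their median, 50.4% with the mean of each spot's CPM and 70.3% with all Paneth list genes left out of the scaling. The counts of calls therefore depend on the scaling, and the direction of each gene in both sections is what is described. The plot of both sections shows that ratios followed each other.

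**Figure D1:**
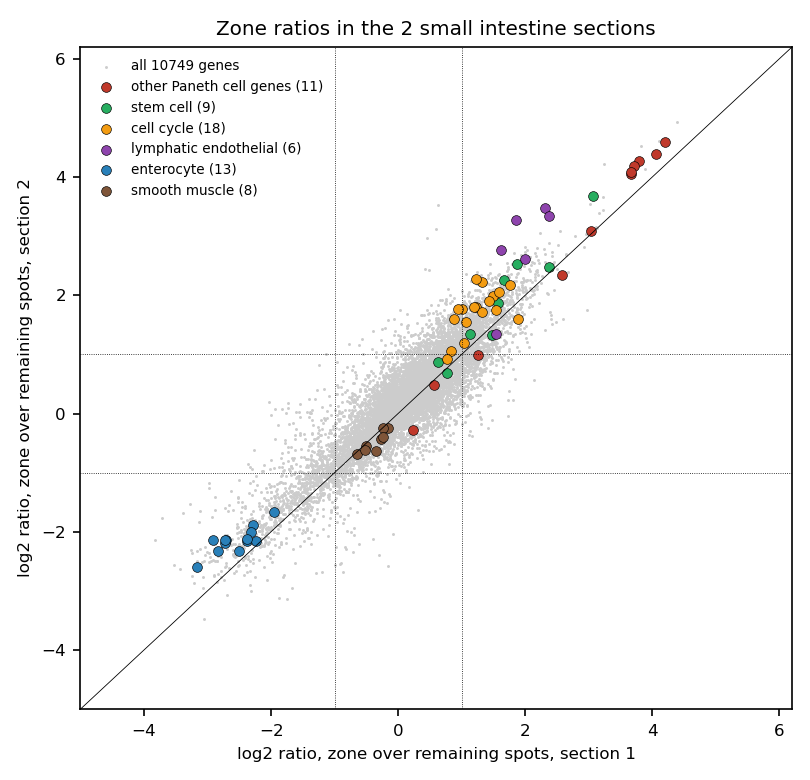
Log2 ratio of each of 10749 genes, zone over remaining spots, in section 1 (horizontal) and section 2 (vertical), with 6 gene lists coloured and their number of genes in brackets. Dotted lines mark 2-fold and the solid line marks equal ratios. Most Paneth cell genes (8 of 11 called higher) lie at the upper right, with Mptx2 at 4.20 and 4.59. Enterocyte genes lie at the lower left, with Fabp2 at -3.17 and -2.60.

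The label held against the markers that the ranking did not use. Lyz1 (ENSMUSG00000069515, chr10:117287795-117292868), the Paneth cell lysozyme that cuts bacterial cell walls, was at 24756 and 17899 CPM in the zone. It was at 1485 and 853 CPM in the remaining spots, a log2 ratio of 4.06 (4.04 to 4.08) and 4.39 (4.37 to 4.42). Single zone spots had from 14 to 1102 Lyz1 UMIs in section 1 with a median of 160, and from 11 to 694 with a median of 101 in section 2. The remaining spots had medians of 9 and 6 and reached 275 and 200, so the ranges overlapped while the middles lay far apart. Mptx2 (ENSMUSG00000079180, chr1:173274461-173277756), a mucosal pentraxin made by Paneth cells, was at 8174 against 444 CPM and at 4093 against 170 CPM, log2 ratios of 4.20 and 4.59. Section 2 had lower Mptx2 levels than section 1 in both groups of spots.

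The other stored defence proteins followed. Of 11 Paneth cell genes tested outside the Defa family, 8 were called higher and 0 lower, with medians of 3.66 and 4.05. Mmp7 (chr9:7692090-7699585), the protease that cuts mouse alpha-defensins into their active form, was at 1719 against 124 CPM and at 960 against 49.8 CPM, with ratios of 3.80 and 4.27. Itln1, a lectin that binds microbial sugars, was at 26515 against 2083 CPM and at 19292 against 1163 CPM. Ang4, an antimicrobial ribonuclease, was less sharply confined, at 14347 against 2401 CPM and 8367 against 1644 CPM, with ratios of 2.58 and 2.35. Clps, the colipase that helps lipases act on fat, had ratios of 3.66 and 4.08, Habp2, a secreted protease, 3.71 and 4.19, and Nupr1, a stress-induced nuclear protein, 3.03 and 3.09. The 3 tested genes of the list that were not called were Copz2 (1.26 and 1.00), Thbs1 (0.56 and 0.48) and Tesc (0.23 and -0.29). Copz2 was just under the threshold in section 2.

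All 5 tested genes of the alpha-defensin family without the Defa prefix were higher, with medians of 4.17 and 4.60. AY761184 was at 4146 against 230 CPM and at 1895 against 79.8 CPM. Gm15293 had 4.40 and 4.94, Gm15292 4.19 and 4.62, Gm14851 4.10 and 4.60, and Gm7861 3.89 and 4.14. These genes resemble the Defa genes in sequence, so the counting can split reads between them and their single values are uncertain.

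Beyond the lists, the rule of size named the genes with the highest ratios in the lower of both sections. Defb1, a beta-defensin of epithelia, was at 93.8 against 6.62 CPM and at 91.7 against 3.97 CPM, ratios of 3.82 and 4.53. Reg4, a secreted lectin of secretory cells, was at 4756 against 372 CPM and at 4009 against 238 CPM. Pnliprp2, a pancreatic-type lipase, had 3.13 and 3.15 and thus joined the colipase gene Clps. The others included the chemokine gene Ccl9 (3.23 and 3.44), Samd5 (3.23 and 3.67), the receptor phosphatase gene Ptpro (3.11 and 3.16), the secreted phospholipase gene Pla2g2f (3.01 and 3.54), Bambi (2.97 and 3.12), a decoy receptor for BMP and activin signals, and Tent5c (2.96 and 3.04), a poly(A) polymerase. Each of these was at least 7-fold higher in the zone in both sections.

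**Figure D2:**
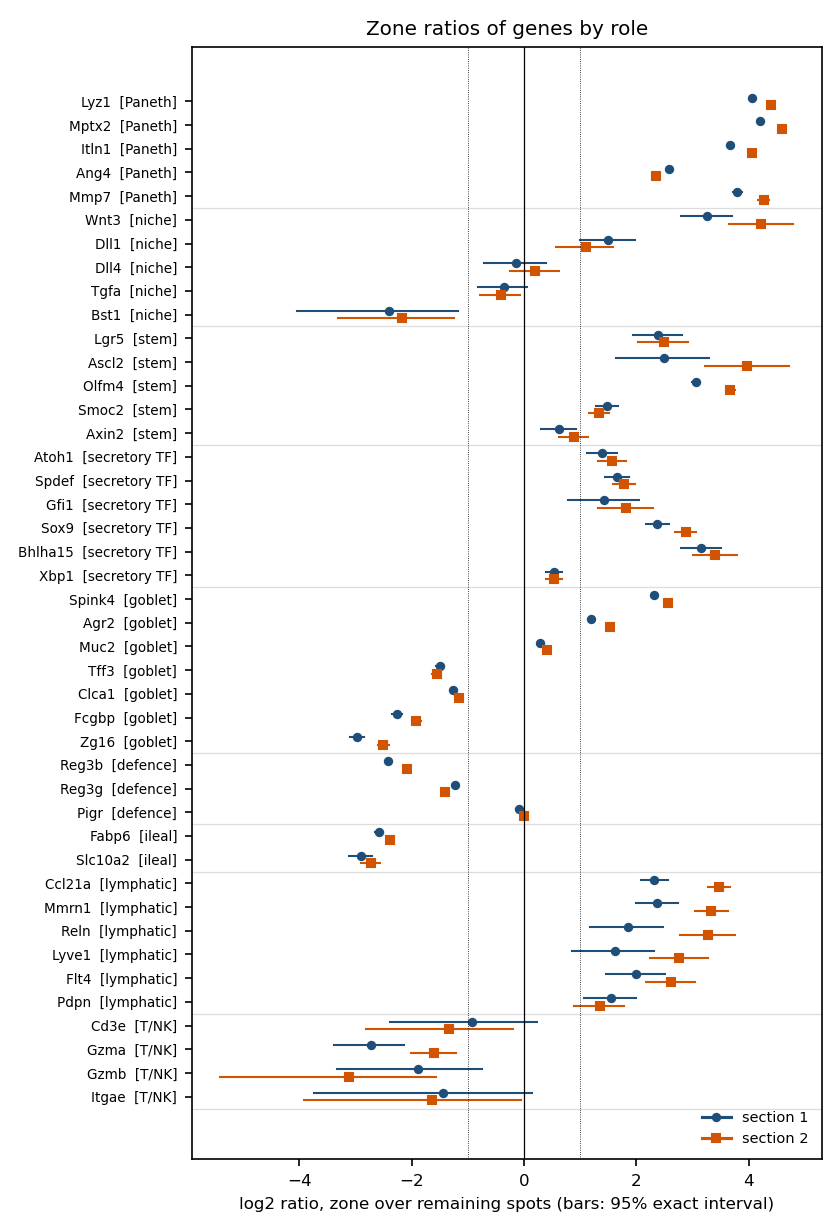
Log2 ratios of named genes by role, zone over remaining spots, with circles for section 1, squares for section 2 and bars for exact 95% counting intervals. Dotted lines mark 2-fold, and Ascl2 had too few UMIs to be tested. Paneth genes and Wnt3 lie above 2, goblet genes fall on both sides of 0, and the T/NK genes rest on few zone UMIs and have wide intervals.

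Among signals by which Paneth cells are known to feed the stem cell niche, the genes did not move as a group. Of 5 tested, 2 were higher and 1 lower, and the medians were -0.15 and 0.20, turning to -0.33 in the mean of both sections when scaled by all UMIs. Wnt3 (ENSMUSG00000000125, chr11:103774175-103818021), the Wnt ligand of Paneth cells, had 71 and 61 zone UMIs against 97 and 47 in the remaining spots. It reached the UMI minimum only with the zone, so its call is no support for the list. It was at 42.7 against 4.49 CPM and at 31.8 against 1.71 CPM, with ratios of 3.25 (2.79 to 3.70) and 4.21 (3.64 to 4.79). UMIs of Wnt3 lay in 56 of 209 and 50 of 257 zone spots, and no zone spot had more than 5. Dll1, a Notch ligand of secretory cells and their precursors, was at 26.5 against 9.40 CPM and at 20.3 against 9.51 CPM, but its call was lost in 5 of the alternatives: scaling by all UMIs, median centring, the mean of each spot's CPM, the top 5% of spots, and ranking by Lyz1 and Mptx2. Dll4 had -0.15 and 0.20, and Tgfa, an EGF receptor ligand, had -0.37 and -0.42. Bst1, an enzyme that makes cyclic ADP-ribose, was lower at 3.01 against 15.9 CPM and 4.69 against 21.2 CPM, on 5 and 9 zone UMIs. Egf had 7 and 3 UMIs in the zone and was not tested.

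Stem cell genes were higher in the zone as well. Of 9 tested, 7 were called higher and 0 lower, with medians of 1.57 and 1.88. Olfm4, a secreted protein made by crypt base stem cells, was at 1716 against 205 CPM and 1376 against 108 CPM, ratios of 3.07 and 3.67. Lgr5, the R-spondin receptor that marks those cells, was at 37.9 against 7.27 CPM and 31.8 against 5.68 CPM, ratios of 2.38 (1.94 to 2.81) and 2.48 (2.03 to 2.92). Smoc2 (1.48 and 1.33), Rnf43 (1.14 and 1.34), Znrf3 (1.57 and 1.88), Slc12a2 (1.66 and 2.26) and Cdca7 (1.87 and 2.53) were also called, of which Rnf43 and Znrf3 encode ligases that remove Wnt receptors. Axin2, a Wnt target, was at 0.62 and 0.88, and Rgmb at 0.77 and 0.69. Ascl2, a stem cell transcription factor, had 19 and 34 zone UMIs and ratios of 2.49 and 3.97, but too few UMIs in all to be tested.

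EphB receptors mark the crypt base and their ephrin-B ligands the upper cells, and together they keep crypt cells in place. Ephb3, the receptor of Paneth cells, was at 61.9 against 9.03 CPM and 65.6 against 8.16 CPM, ratios of 2.78 and 3.01. Ephb2 had 1.35 and 1.92 and Ephb4 1.26 and 1.57. The ligand genes Efnb1 (-0.71 and -0.76) and Efnb2 (-1.37 and -0.72) were below 0 without being called. The 3 receptors were called, and with scaling by all UMIs 1 gene of the 5 was higher and 1 lower.

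Cell cycle genes were higher in 14 of 18 cases and lower in 0, with medians of 1.22 and 1.76. Mki67, present in dividing cells, was at 103 against 44.4 CPM and 105 against 30.2 CPM, and Stmn1, a tubulin-binding protein of dividing cells, had 1.75 and 2.17. Ccnb1 (0.88 and 1.61), Pcna (0.84 and 1.07), Ube2c (0.94 and 1.76) and H2afz (0.77 and 0.92) were not called. This count was sensitive, with 6 of 18 higher when scaled by all UMIs, 9 with median centring and 4 with the mean of each spot's CPM.

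The transcription factors of secretory cells were higher in 7 of 8 cases, with medians of 1.58 and 2.02. Bhlha15 (also called Mist1), a factor of cells with large granule stores, was at 67.4 against 7.55 CPM and 50.5 against 4.81 CPM, ratios of 3.16 and 3.39. Sox9, which Paneth cells need to form, was at 172 against 33.2 CPM and 189 against 25.7 CPM. Atoh1, which sets secretory fate, had 1.38 and 1.56, Gfi1 1.43 and 1.82, Spdef 1.66 and 1.79, Foxa3 1.78 and 2.36, and Creb3l1 1.495 and 2.21. Xbp1, a factor of the unfolded protein response, was at 0.54 and 0.53 and was the exception.

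Genes for protein folding in the endoplasmic reticulum, which secretory cells use heavily, were called in 0 of 12 cases. Their medians were 0.51 and 0.74. Hspa5, the main chaperone, had 0.53 and 0.74, Pdia6 0.99 and 1.25, Creld2 1.17 and 0.90, and Calr 0.28 and 0.18, the last turning below 0 in the mean of both sections when scaled by all UMIs. Paneth granules are rich in zinc, but of 6 genes for metal handling 0 were higher and 1 was lower. The zinc exporter gene Slc30a2 had 0.42 and 0.83, the metallothionein gene Mt1 had -0.28 and -0.09, and Slc39a4, the zinc importer of absorptive cells, had -1.75 and -1.52.

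Goblet cells, the mucus-making cells that share precursors with Paneth cells, gave a split picture. Of 8 goblet genes 2 were higher and 4 lower, with medians of -0.49 and -0.37. Spink4, a protease inhibitor-like peptide, was at 32389 against 6528 CPM and 24644 against 4160 CPM, ratios of 2.31 and 2.57. Agr2, a folding enzyme for mucins, was at 1618 against 707 CPM and 1346 against 464 CPM. The mucin gene Muc2 was at 3383 against 2768 CPM and 3171 against 2382 CPM, with ratios of 0.29 and 0.41 that lay near the shift of all genes and came to -0.00 in the mean of both sections when scaled by all UMIs. Zg16, a lectin of mature goblet cells, was at 336 against 2637 CPM and 453 against 2569 CPM, ratios of -2.97 and -2.50. Fcgbp (-2.26 and -1.92), Tff3 (-1.50 and -1.55) and Clca1 (-1.26 and -1.16) were lower too. The summed goblet list was at 40585 against 21201 CPM and 32200 against 16774 CPM, above 0 on the log2 scale where the median of its genes was below 0. Spink4 held most of that sum in the zone but not in the remaining spots.

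Of 7 hormone cell genes 2 were higher and 1 lower, and with scaling by all UMIs 1 was higher and 3 lower. Chga, a granule protein of these cells, had 1.22 and 1.40, and Gcg, the glucagon precursor gene, was at 110 against 40.4 CPM and 95.9 against 32.3 CPM. Nts, the neurotensin gene of villus hormone cells, was lower with -2.08 and -1.59. Among 6 tuft cell genes 0 were called in either direction, with medians of -0.22 and 0.36.

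Among genes of absorptive cells, all 13 tested enterocyte genes were lower in the zone, with medians of -2.50 and -2.14. Fabp2, which carries fatty acids in enterocytes, was at 477 against 4303 CPM and 810 against 4902 CPM. Apoa1 had -2.72 and -2.14, the sugar-cutting enzyme gene Sis -2.84 and -2.33, and Vil1, which builds microvilli, -1.95 and -1.67. Of 6 genes of the villus tip 5 were lower, with Krt20, a keratin of mature cells, at -2.42 and -2.18, and the exception was Nt5e at 0.09 and -0.47. All 5 ileal genes were lower, among them the bile acid carrier genes Fabp6 (1079 against 6478 CPM and 1070 against 5570 CPM) and Slc10a2 (-2.90 and -2.73). Among 4 proximal genes tested, Hpd, a tyrosine-degrading enzyme, was higher at 109 against 18.7 CPM and 148 against 17.4 CPM. Cybrd1, a ferric reductase that reached the UMI minimum only with the zone, was higher at 2.02 and 2.23, and Slc40a1, the iron exporter, was lower at -1.59 and -1.64.

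In the list of Reg and other epithelial defence genes, which held neither Defb1 nor Reg4, 6 of 8 tested were lower and 0 higher, but 3 of 8 were lower with the mean of each spot's CPM. Reg3b, a bactericidal lectin of villus epithelium, was at 7316 against 39311 CPM and 7870 against 33322 CPM, ratios of -2.43 and -2.08. Its close relative Reg3g had -1.22 and -1.41. Lypd8, which binds flagella, had -1.29 and -1.13, and the chemokine gene Ccl25 had -1.84 and -1.65. Pigr, the carrier of IgA across epithelium, was at -0.09 and -0.00. The 15 lowest-ranked genes named by size included Gml2 (-3.06 and -3.47), Naaladl1 (28.3 against 203 CPM and 30.7 against 223 CPM), the amino acid carrier gene Slc6a14 (29.5 against 317 CPM and 54.7 against 339 CPM), Sprr2a3 (250 against 1775 CPM in section 1), Ubd (-2.66 and -2.61) and Ifit1 (-2.79 and -2.67).

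Of 12 fibroblast and stromal niche genes 7 were higher and 0 lower, with medians of 1.46 and 1.28. Col1a1, a fibrillar collagen, was at 969 against 292 CPM and 1147 against 341 CPM, Dcn had 1.83 and 1.61, Cd34 1.86 and 1.71, and Adamdec1, a protease of mucosal fibroblasts, 1.61 and 1.95. The BMP antagonist gene Grem1 was at 0.70 and 0.50, the R-spondin gene Rspo3 at 1.26 and 0.83, and Wnt5a, a ligand of villus-tip stroma, at -1.62 and -0.61. Smooth muscle genes were called in 0 of 8 cases, with medians of -0.31 and -0.48 and Acta2 at 1720 against 1915 CPM in section 1. The neuropeptide gene Vip was at 97.4 against 64.2 CPM in section 1 and 512 against 58.7 CPM in section 2. A single spot held 34.6% and 31.8% of these zone UMIs, and without it the ratios were -0.00 and 2.59.

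Of 7 lymphatic endothelial genes in the files, 6 were tested and 6 were called higher, with medians of 1.92 and 3.02. Lyve1 and Reln reached the UMI minimum only with their zone UMIs, so the filter bears on this count. The other 4 reached it outside the zone alone, and 4 of them were higher. Ccl21a, the chemokine of lymphatic vessels, was at 118 against 23.6 CPM and 205 against 18.4 CPM, ratios of 2.32 (2.07 to 2.56) and 3.48 (3.28 to 3.67). Mmrn1, an adhesive protein, had 2.37 and 3.34, the receptor gene Flt4 had 1.99 and 2.61, the hyaluronan receptor gene Lyve1 had 1.62 and 2.77, and Pdpn had 1.54 and 1.34. Reln, the secreted matrix protein reelin, was at 16.2 against 4.49 CPM and 32.3 against 3.35 CPM, ratios of 1.85 (1.18 to 2.48) and 3.27 (2.78 to 3.75). These UMIs lay in a minority of zone spots, 72 of 209 and 87 of 257 for Ccl21a and 21 and 38 for Reln. With the leading zone spot of each gene left out, the Ccl21a ratios were 2.11 and 3.31 and those of Reln 1.70 and 3.16. Section 2 had the higher ratio for all of them except Pdpn. Prox1, the master factor of lymphatic identity, had 15 and 21 zone UMIs and ratios of 1.58 and 1.82, but too few UMIs in all to be tested. Ccl21a has near-identical copies, so its level is uncertain.

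Blood vessel genes were higher in 1 of 7 cases, Plvap with 1.27 and 1.55, and in 0 of 7 when scaled by all UMIs. Their medians were 0.79 and 0.95. Macrophage genes were higher in 5 of 7 cases, with the complement gene C1qa at 199 against 68.8 CPM and 170 against 73.8 CPM, but in 1 of 7 when scaled by all UMIs. Plasma cell genes were called in 0 of 7 cases, with the antibody gene Igha at 12185 against 5650 CPM and 10514 against 5676 CPM. T and NK cell genes were lower in 4 of 8 cases. Gzma, a granzyme of killer cells, was at 13.8 against 91.8 CPM and 28.7 against 87.2 CPM. Of 3 mast cell genes Kit was higher (1.43 and 1.41) and Mcpt1 lower (-2.28 and -2.52, on 3 and 4 zone UMIs), and with scaling by all UMIs 0 were higher and 2 lower.

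Levels were followed over 10 equal groups of kept spots (deciles), ordered by Defa share with the zone as decile 1. This is an order by Defa share, not by place in the tissue. Lyz1 fell off steeply, from 24756 CPM in decile 1 to 6905 in decile 2 and 298 in decile 10 of section 1, and from 17899 to 4799 and 196 in section 2. Olfm4 fell off more slowly, from 1716 to 1045 CPM and from 1376 to 700 CPM between deciles 1 and 2. The summed cell cycle list was at 2484 CPM in decile 1 and 3008 in decile 2 of section 1, and at 2287 and 2146 in section 2, so decile 2 was above decile 1 in section 1 and below it in section 2. Smooth muscle peaked in decile 3, at 25389.5 and 25273 CPM, against 8767 and 11061.5 in the zone. Reg3b went from 7316 CPM in decile 1 to 62712 in decile 10 of section 1 and from 7870 to 47776.5 in section 2. Depth changed along the same order. Its median was 8922 and 7059 UMIs in decile 1, was lowest in decile 3, the smooth muscle peak, at 7513 and 4147, and was highest in decile 10 at 17149 and 22546. Its part in these patterns was not tested.

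**Figure D3:**
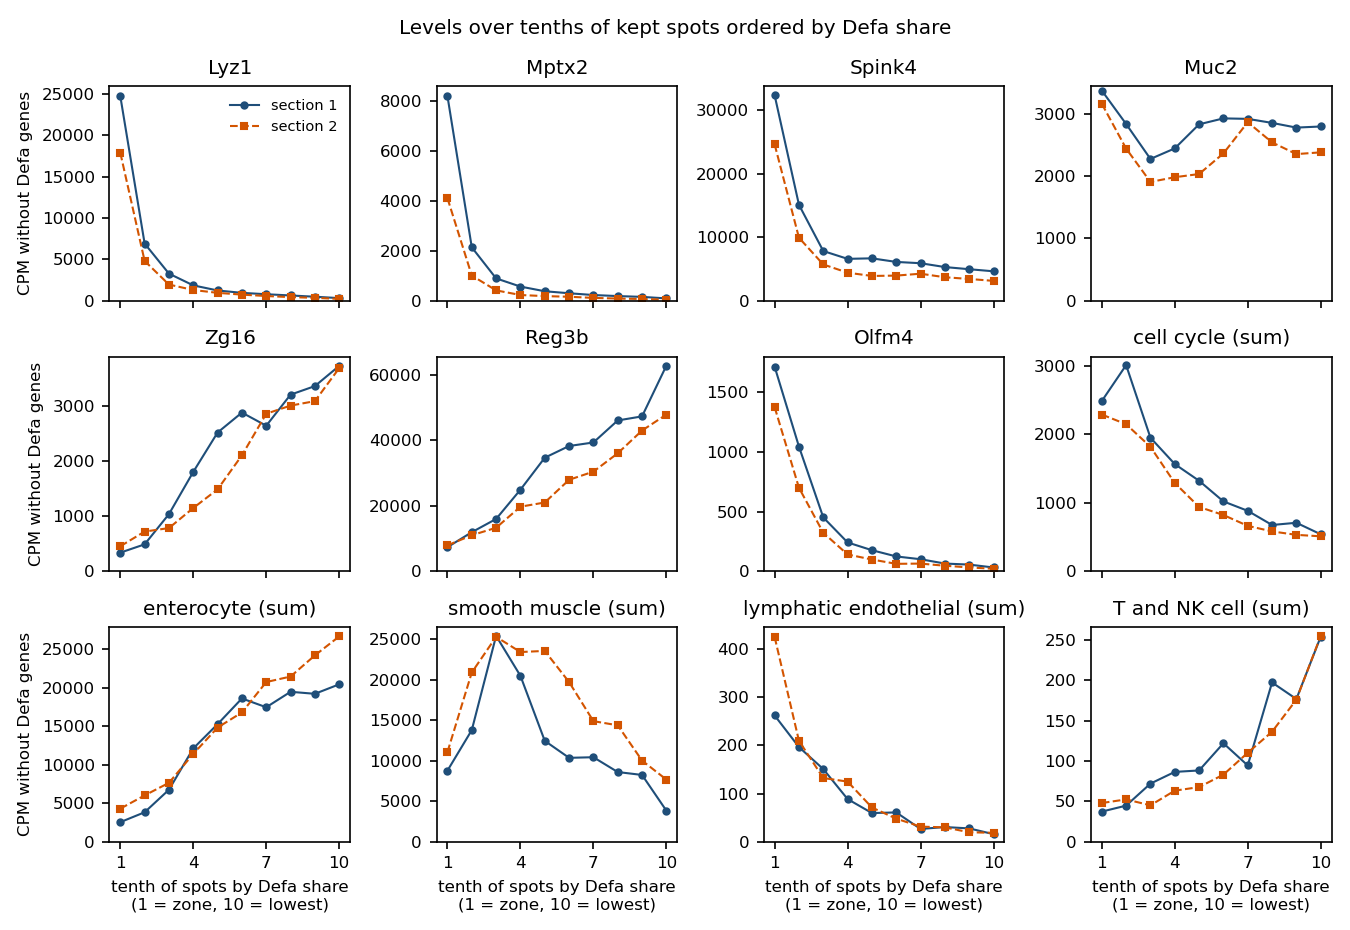
Level in CPM without Defa genes (vertical, from 0) over 10 equal groups of kept spots ordered by Defa share (horizontal, 1 is the zone), for 7 genes and 5 summed lists, with circles for section 1 and squares for section 2. Lyz1, Mptx2, Spink4 and Olfm4 are highest in the zone, smooth muscle peaks in group 3, and Reg3b, Zg16, enterocyte and T/NK genes are highest at the low-Defa end.

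The zone was also set against only the next 10% of spots by Defa share, a comparison added after values were seen. These 210 and 257 spots had a median Defa share of 8.79% and 5.15% and a median of 7532.5 and 5153 UMIs. Of the same 10749 genes, 41 (0.381%) were higher and 41 (0.381%) lower in the zone. Among them, 36 of the higher genes were also higher, and 14 of the lower genes also lower, than in the remaining spots as a whole. The median log2 ratio of all genes was -0.11 and -0.03. Both counting intervals lay above 0 for 36 of the 41 higher genes and below 0 for 21 of the 41 lower genes.

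In this comparison 8 of 11 Paneth cell genes and 5 of 5 alpha-defensin-like genes were higher, with Lyz1 at 1.84 and 1.90 and Mptx2 at 1.94 and 2.03. When the top 5% of spots were instead set against the following 5%, which had been zone spots, 2 of 11 and 1 of 5 were higher, and 4 of the 41 genes kept their call. Wnt3 was at 42.7 against 21.2 CPM and 31.8 against 7.66 CPM, ratios of 1.01 (0.42 to 1.62) and 2.05 (1.17 to 3.04). Bhlha15 was at 1.26 and 1.42, Spink4 at 1.10 and 1.31 and Reg4 at 1.52 and 1.73. Outside the lists, the higher genes included Bmp7 (1.17 and 1.51), a BMP ligand, Bambi (1.27 and 1.52) and Il33 (1.37 and 1.17), an alarm cytokine. Of the stem cell genes 0 of 9 were called, with Olfm4 at 0.72 and 0.98 and Lgr5 at 0.73 and 1.00 (0.998 before rounding). Cell cycle genes gave 0 of 18, with medians of -0.36 and 0.05, and lymphatic genes 0 of 6, with medians of 0.37 and 1.08. The lymphatic values differed between sections, with Reln at 0.30 and 2.08 and Ccl21a at 0.33 and 1.39. Lower genes included the mesothelial genes Upk3b (-2.39 and -2.01) and Msln (-2.15 and -1.76), on 4 and 9 and on 3 and 9 zone UMIs, which were named after their values were seen.

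**Figure D4:**
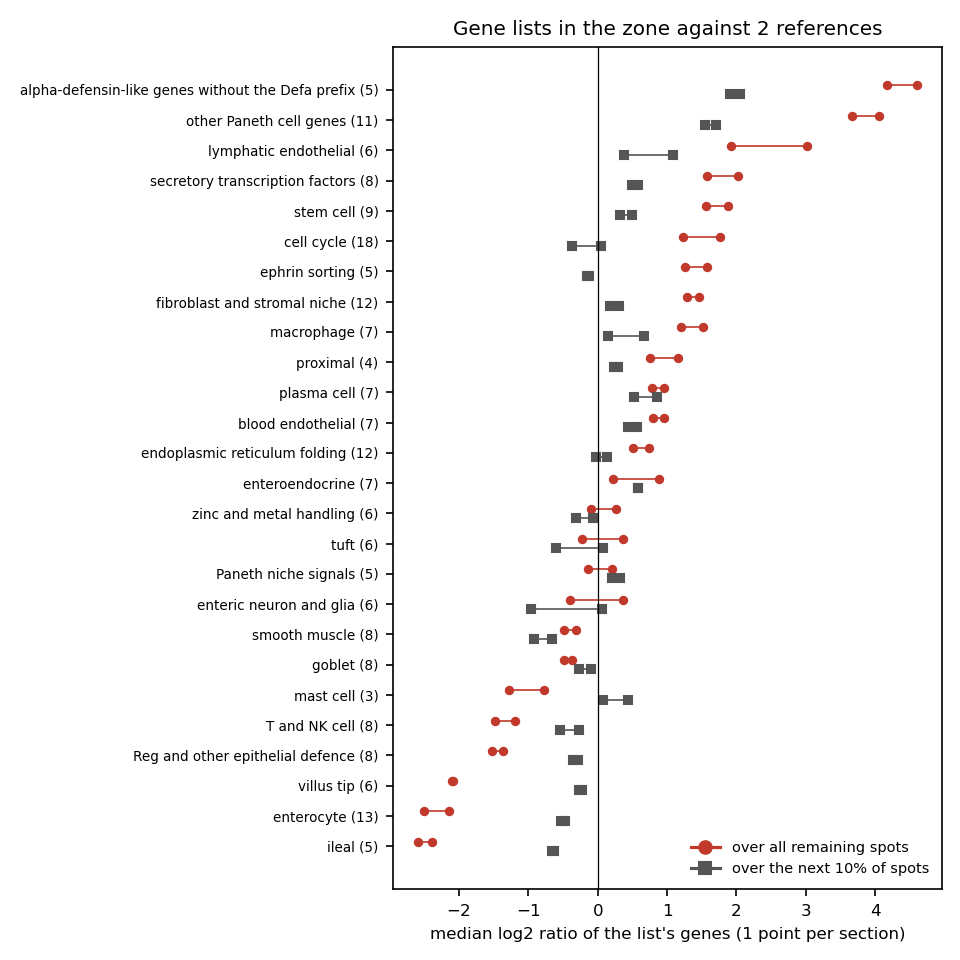
Median log2 ratio of each gene list, with 1 point per section joined by a line and the number of tested genes in brackets, for the zone over all remaining spots (circles) and over the next 10% of spots (squares). Against the next 10%, the Paneth cell list has medians of 1.55 and 1.71. Stem cell (0.32 and 0.49), cell cycle (-0.36 and 0.05) and enterocyte (-0.53 and -0.46) lists have smaller shifts there than against all remaining spots.

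Zone spots overlapped strongly with spots ranked by other Paneth genes. When the top 10% of spots were taken by Lyz1, 89.0% and 87.2% of them were zone spots, and the share was 86.6% and 80.5% for Mptx2, 93.3% and 89.5% for Itln1, 76.1% and 71.2% for Mmp7 and 82.8% and 84.4% for Spink4. As each group is 10% of the kept spots, each share holds for both lists. It was 57.4% and 61.5% for Olfm4 and 54.5% and 59.5% for the stem cell list, but 18.2% and 27.2% for the cell cycle list. Goblet-rich spots shared 47.8% and 48.6%, fibroblast-rich spots 34.4% and 28.4%, lymphatic-rich spots 28.2% and 32.3%, macrophage-rich spots 27.8% and 25.3% and plasma cell-rich spots 24.9% and 24.1%. T and NK cell-rich spots shared 2.39% and 3.502%, and enterocyte-rich and villus-tip-rich spots 0 of 209 and 0 of 257. Spots richest in smooth muscle genes shared 1 of 209 and 0 of 257.

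Spots of the zone and spots rich in dividing cells were therefore compared directly, again after values were seen. Spots only in the zone numbered 171 and 187, spots only in the top 10% by the cell cycle list 171 and 187, and spots in both 38 and 70. Zone-only spots had more Wnt3, at 45.0 against 10.6 CPM and 38.8 against 5.43 CPM, log2 ratios of 2.08 and 2.84. Lgr5 was at 41.0 against 18.3 CPM and 34.8 against 14.3 CPM, and Olfm4 at 1599 against 973 CPM and 1242 against 710 CPM. Ephb3 had 1.23 and 1.14, whereas Ephb2 had -0.74 and -0.47 and Gcg -1.17 and -1.11. Ccl21a was at 144 against 20.1 CPM and 235 against 23.1 CPM, and Col1a1 at 1093 against 276 CPM and 1371 against 356 CPM. The lymphatic gene and the collagen gene were thus both higher on the Defa side than on the cell cycle side in each section.

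Within the zone, spots varied in which Defa genes they held. Of 22 Defa genes, 6 made up 95.9% and 96.8% of zone Defa UMIs. Defa24 took 44.1% and 44.9%, Defa30 22.7% and 24.0%, Defa17 9.19% and 13.4%, Defa22 10.5% and 7.34%, Defa21 7.88% and 5.21%, and Defa3 1.41% and 2.004%. Against the remaining spots, the log2 ratios of these shares were -0.10 and -0.13 for Defa24, 0.13 and 0.19 for Defa30, -0.31 and -0.24 for Defa17, and 0.24 and 0.41 for Defa22. Some minor genes differed more, with Defa35 at 1.09 and 0.82, Defa34 at 0.67 and 0.69 and Defa36 at 0.55 and 0.48, each on under 1% of zone Defa UMIs. The pair Defa21 and Defa22, whose start regions are identical, ranged from 3.28% to 28.2% of a zone spot's Defa UMIs in section 1 with a median of 16.8%. In section 2 it ranged from 1.56% to 27.9% with a median of 8.93%.

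Over zone spots, the Defa share ranked together with the CPM of other granule genes, as a description over 209 and 257 spots that share a library and a denominator. Spearman's rho was 0.84 and 0.75 for Ang4, 0.81 and 0.80 for Itln1, 0.74 and 0.77 for Lyz1, 0.68 and 0.63 for Mptx2 and 0.66 and 0.62 for Spink4, and the goblet list, which holds Spink4, had 0.57 and 0.54. It was 0.13 and 0.28 for the stem cell list, -0.07 and -0.10 for the cell cycle list, 0.08 and 0.19 for the lymphatic list and -0.41 and -0.26 for the enterocyte list.

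With each spot thinned to 2000 UMIs of genes other than Defa, which left out 8 and 9 zone spots and 30 and 153 remaining spots, Lyz1 was found in 201 of 201 and 248 of 248 zone spots. It was found in 79.8% and 72.3% of remaining spots, and in 1.49% and 1.52% of large intestine spots thinned alike, a tissue without Paneth cells. Mptx2 was found in 100% and 98.4% of zone spots, in 51.4% and 30.9% of remaining spots and in 0 of 2084 and 0 of 2166 large intestine spots. Lgr5 was found in 7.96% and 7.66% of zone spots against 1.08% and 1.62%, and unthinned in 24.4% and 18.3% against 6.53% and 5.49%. Detection of Lyz1 in the remaining spots, whose distance from zone spots was not used, was thus far above that in the large intestine.

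The sorted small intestinal library, made from live cells enriched for LGR5+ stem cells and for CD31+ PDPN+ LYVE1+ lymphatic endothelial cells, gave single cells to set beside the spots. Its source mice included the Lgr5 knock-in, and shares in it describe the sort. Of 2756 kept cells, 234 had at least 10% Defa UMIs, with a median Defa share of 46.0%, against 0.354% in the others. Their median depth was 20702 against 11285 UMIs. Of the 20 genes with the highest zone ratios, 19 were at least 2-fold higher in these cells. No share over all genes stands beside this count, and Wnt3, among the 20, reached the UMI minimum only with the zone. Lyz1 was at 87225 against 373 CPM, Mptx2 had a log2 ratio of 8.52, AY761184 8.55 and Clps 7.86. Wnt3 was at 99.2 against 4.18 CPM, a ratio of 4.57 (4.32 to 4.82).

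The exception was Olfm4, at 288 against 953 CPM, a ratio of -1.72. Genes that were high in zone spots thus went both ways in these sorted cells. The sort enriched for LGR5+ stem cells and lymphatic endothelial cells, so low ratios of their genes cannot be told apart from the sort. No median over all genes stands beside these ratios. Ephb3 (2.92), Sox9 (1.01), Hpd (2.67), Cybrd1 (4.80), Kit (1.52) and Spink4 (3.13) were higher in the cells rich in Defa UMIs. Lgr5 was at -0.36, Mki67 at -2.77, Dll1 at -1.30, Gcg at -4.05, Col1a1 at -2.37, C1qa at -3.79, Ccl21a at -2.76 and Reln at -3.10, and all 6 tested lymphatic genes were below 0. Muc2 was at 0.68 and Zg16 at -1.82, with 72.9% of the Zg16 UMIs of these cells in 1 cell. This was 1 library, so no replicate stands behind these values.

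**Figure D5:**
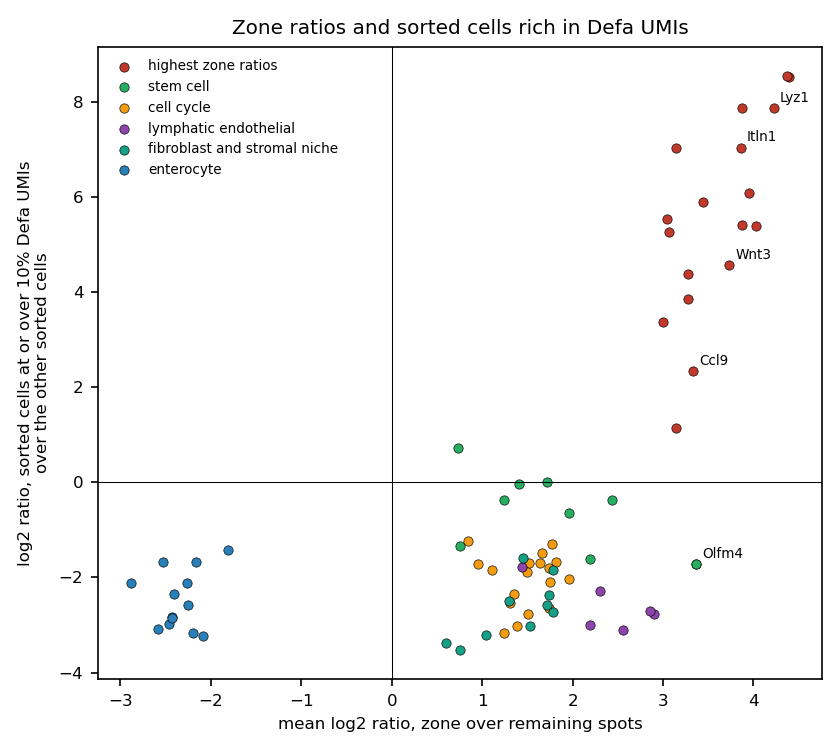
Mean log2 ratio of both sections, zone over remaining spots (horizontal), against the log2 ratio of sorted cells with at least 10% Defa UMIs over the other sorted cells (vertical), for genes with at least 100 UMIs in the sorted library. The genes with the highest zone ratios lie at the upper right, with Lyz1 at 7.87 on the vertical axis, except Olfm4 at -1.72, and fibroblast, lymphatic and cell cycle genes lie at the lower right.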

How the data were processed

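The counts used were the UMI counts per gene and barcode as deposited, with no normalization. They were made with Space Ranger 1.2.1 for the Visium sections and Cell Ranger 6.0.1 for the sorted cells, per the file headers. The build was mm10, per the submitters' processing notes, and the annotation release is not given in the sources used here. The depth was 24356162 and 30091604 UMIs in the small intestine sections.

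From these counts, CPM without Defa genes, log2 ratios and exact 95% intervals (Poisson ratio, and Clopper-Pearson for shares) were computed per section with Python 3.11.15, numpy 2.4.6, scipy 1.17.1 and pandas 2.3.3. For ratios, 3 was the lowest count used, and smaller counts were raised to it. Genes needed 100 UMIs in each section. No test was made, since the sections are technical duplicates. The code was tested on simulated data.

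The zone, the 27 gene lists and the comparisons were chosen with earlier results of these data known. Named genes were the 20 highest and 15 lowest ratios, leaving out Defa, mitochondrial, ribosomal protein, sex and unnamed genes, then 6 Defa genes and all list members. Of the list genes, 7 had no entry and were not analysed. The symbol Ccl21a names 2 IDs, and the one with more UMIs was used. Positions came from RefSeq (GRCm38.p6) for 267 of 274 named genes, and 32158 of 32285 gene IDs were in the table of gene names. Sorted cells needed 500 or more genes and no more than 20% mitochondrial UMIs, with no doublet filter. Spot positions, the organoid libraries and the sorted large intestinal library were not used here. Alternatives changed the share of spots, the UMI minimum, the scaling, the ranking and the gene filter, or left out a section.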

Additional observations from a re-analysis of the deposited data

How the results depend on the processing

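Each ratio pairs zone spots with other spots of the same section. Beyond that, no paired analysis was possible because no test between the labelled groups was made. Of the 1968 genes called against the remaining spots, 0 took the other sign in the mean of both sections under the alternatives run, though lower calls outnumbered higher ones with scaling by all genes and with centring. Of the 82 called against the next 10%, 12 took the other sign with the top 5% of spots, 4 with the top 20% and 1 with ranking by Defa UMIs. The count of 1186 genes higher than the remaining spots was 627 with the mean of each spot's CPM, 438 with scaling by all genes, 629 with centring on the median and 3697 with no filter on UMIs (16001 genes given a ratio), and 1509 to 2283 with 1 section left out. The count of 782 lower genes was 1238 with scaling by all genes, 1160 with centring, and 994 to 1070 with 1 section left out. It fell to 721 with the top 20% of spots and 666 with all Paneth list genes left out of the scaling. With the mean of each spot's CPM it was 616. Against the next 10% of spots there were 41 higher genes. There were 22 with the top 5% of spots set against the next 5% (4 of the 41 among them), 120 with the top 20% (30 of the 41), 21 with scaling by all genes (21), 87 with ranking by Defa UMIs (30), 92 with a minimum of 30 UMIs, 108 with no filter, and 163 to 260 with 1 section left out. Of lower genes there were 41, and 34 with the top 5% (1 of the 41 among them), 108 with the top 20% (8), 76 with spots of at least 5000 UMIs (31), 127 with scaling by all genes (41), 186 with ranking by Defa UMIs (12), 70 with ranking by Lyz1 and Mptx2 (20), 64 with a minimum of 30 UMIs, 66 with no filter, and 261 to 304 with 1 section left out. Leaving out a section drops the demand that both pass, and the causes of the other moves were not tested. Of the 81 named genes that were higher, 59 stayed so with scaling by all genes and 62 with the mean of each spot's CPM, and of 55 lower genes 55 and 51 did. The 6 lymphatic genes stayed at 6 under each scaling and at 5 with the mean of each spot's CPM. Lyve1 and Reln among them reached the UMI minimum only with the zone, so their calls add no support. Depth limits Wnt3, Lgr5, Reln and the T and NK cell genes, whose intervals are wide, and the number of animals behind the sections is not given in the sources used here.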

Other observations

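Some genes expressed in enteric neurons had large gains in ratio from section 1 to section 2, and were singled out after their values were seen. The list of enteric neuron and glia genes did not move as a group. It had 0 of 6 genes called, with medians of -0.40 and 0.37, and of the genes named below it held only Vip. The gene with the largest gain in ratio from section 1 to section 2 was Npy, a neuropeptide, at 18.0 against 11.6 CPM in section 1 and 86.5 against 7.54 CPM in section 2, log2 ratios of 0.63 and 3.52. Vip followed with 0.60 and 3.13, and Scgn, a calcium sensor of neurons and hormone cells, with 0.46 and 2.97. Dbh, which makes noradrenaline, had 0.42 and 2.45. In section 2 the 5 zone spots with the most Vip UMIs held 78.9% of the zone UMIs of Vip, 73.5% of those of Npy, 72.6% of those of Scgn and 67.3% of those of Dbh. Without these 5 of 257 spots the section 2 ratios were 0.94 for Vip, 1.66 for Npy, 1.16 for Scgn and 0.90 for Dbh.

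Of the genes higher than in the next 10% of spots, Trbc1, Tlr4, Zfp37, C4bp and Apoc2 were not higher than in the remaining spots as a whole. Trbc1, a T cell receptor chain, had 10 and 11 zone UMIs and intervals from -0.15 to 4.31 and from -0.22 to 4.18. Tlr4, a receptor for bacterial lipopolysaccharide, had 15 and 10 zone UMIs. C4bp rested on 48 and 58 zone UMIs, with ratios of 1.26 and 1.43, and Apoc2 on 276 and 319, with ratios of 1.07 and 1.07.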
